A study of Mus musculus with 16 samples.

Results

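Errfi1, Ddit4, Sgk1, Tsc22d3, Zbtb16 and Ppl are genes that steroid hormones are known to induce in various cells, and their messenger RNA was followed here in mouse retroperitoneal fat after injection of dihydrotestosterone (DHT), an androgen that the body forms from testosterone. Every probe set whose only gene symbol was one of these 6 was taken, which gave 8 probe sets for 6 of the 8251 genes that the arrays name with 1 symbol. Errfi1 and Zbtb16 have 2 probe sets each, and the other 4 genes have 1 each. A signal of 116.03, the 40th percentile of mean signal over probe sets, was the lower limit for testing. It was passed by 7 of the 8 probe sets and by 5 of the 6 genes, and Tsc22d3 was the gene that did not pass.

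The series holds 16 single-colour Affymetrix arrays, 8 from females and 8 from males, all gonadectomised. The DHT groups had received 0.1 mg of DHT under the skin 1, 3, 6, 12, 18 or 24 h before the fat was taken, with 1 array per sex and time. Signals after DHT are always listed in that order of time. The vehicle groups had 2 arrays per sex, whose labels give a time of 24 h. The DHT arrays at 1 to 18 h thus have no vehicle array of the same labelled time. At those times an effect of DHT cannot be told apart from one of the injection or of the time of day. Fat from every mouse of a group was gathered, and RNA of several mice may be pooled on 1 array. Whether the paired vehicle arrays of 1 sex stem from different animals is not stated, and the spread between them may be technical. The residual spread of the main model comes from these pairs and from female and male arrays of the same DHT time. Values are MAS5 signals on a linear scale, each array scaled by the authors to the same trimmed mean. Group differences are compared here between arrays for 1 probe set at a time. Mean signals were ranked between probe sets to set the limit for testing, to choose 1 probe set per gene and to name low signals. Differences were computed as log2(signal + 16), which understates the change of low signals.

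A cell that receives an androgen or a glucocorticoid answers through a nuclear receptor that enters the nucleus, binds DNA and raises or lowers transcription. Several of the genes it raises encode brakes on growth factor and inflammatory signalling. Errfi1 encodes a cytoplasmic protein that binds the EGF receptor and blocks its kinase. Ddit4 encodes a stress-induced protein that lowers the activity of mTORC1, the kinase complex that promotes protein synthesis. Sgk1 encodes a serum- and glucocorticoid-regulated kinase of the AKT family that acts on ion channels and on FOXO factors. Tsc22d3 encodes the leucine zipper protein GILZ, which binds NF-kappaB and AP-1 factors. Zbtb16 encodes the BTB zinc finger repressor PLZF, and Ppl encodes periplakin, a linker between desmosomes and intermediate filaments. Adipose tissue is a target of both androgens and glucocorticoids, and the receptors of both bind the same inverted repeat of a hexamer.

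RefSeq promoter windows (mouse assembly GRCm38.p6, from 250 bases before to 50 bases after a gene's start) were at hand for 4 of the 6 genes, 12 windows in all, with 6 for Sgk1, 3 for Tsc22d3, 2 for Errfi1 and 1 for Ddit4. The sequences, 5′ to 3′ on the gene's strand, are the Sgk1 window with the most motif matches and the windows of Errfi1 and Ddit4, the genes whose signals were above vehicle most often after DHT. Capitals mark every match to the hexamer AGAACA on either strand or to an inverted repeat (GNACA, 3 bases, TGTNC).
Sgk1, chr10:21993640-21993939, plus strand: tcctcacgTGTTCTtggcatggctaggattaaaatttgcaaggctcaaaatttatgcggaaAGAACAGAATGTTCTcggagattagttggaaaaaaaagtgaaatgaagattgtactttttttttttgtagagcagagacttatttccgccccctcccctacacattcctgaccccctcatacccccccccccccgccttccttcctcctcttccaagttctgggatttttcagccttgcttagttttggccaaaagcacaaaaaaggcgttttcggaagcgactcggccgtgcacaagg
Errfi1, chr4:150853546-150853845, plus strand: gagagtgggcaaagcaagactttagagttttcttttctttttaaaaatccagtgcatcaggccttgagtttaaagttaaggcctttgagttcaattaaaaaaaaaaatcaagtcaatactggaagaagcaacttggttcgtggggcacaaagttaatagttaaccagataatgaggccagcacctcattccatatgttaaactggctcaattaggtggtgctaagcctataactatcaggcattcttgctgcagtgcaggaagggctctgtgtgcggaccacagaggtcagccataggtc
Errfi1, chr4:150854820-150855119, plus strand: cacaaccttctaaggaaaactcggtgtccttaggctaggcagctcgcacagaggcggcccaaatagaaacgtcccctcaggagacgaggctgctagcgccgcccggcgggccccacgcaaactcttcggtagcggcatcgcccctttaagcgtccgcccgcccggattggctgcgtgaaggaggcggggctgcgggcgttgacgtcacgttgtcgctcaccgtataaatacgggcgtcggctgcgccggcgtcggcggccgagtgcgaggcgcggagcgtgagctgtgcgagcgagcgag
Ddit4, chr10:59951721-59952020, minus strand: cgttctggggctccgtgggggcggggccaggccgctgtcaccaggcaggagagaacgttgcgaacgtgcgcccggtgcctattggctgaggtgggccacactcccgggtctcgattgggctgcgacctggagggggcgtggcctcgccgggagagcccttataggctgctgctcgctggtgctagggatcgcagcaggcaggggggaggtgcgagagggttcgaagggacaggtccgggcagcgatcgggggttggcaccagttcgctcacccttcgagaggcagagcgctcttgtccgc
The hexamer was found in 4 of the 12 windows, of which 3 were Sgk1 windows and 1 was a Tsc22d3 window, and it was found in 19.0% of all 32851 windows of the table (6233 windows). The inverted repeat was found in the Sgk1 window above and in no other of the 12, and in 0.475% of all windows (156 windows). It spans chr10:21993702-21993714, 188 to 176 bases before the start to which that window belongs, and overlaps 2 of the 3 hexamers of that window. Sgk1 has 6 windows, each at a start of its own, and the distance holds for this start only. A match is a description of letters and not a bound site. No match in the Errfi1 and Ddit4 windows says only that these letters are not in these 300 bases.

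Male vehicle replicate 2 stood apart from the other arrays, and results are therefore given with all 16 arrays and, where its absence moves them, with the 15 others. Its correlations with the other arrays were 0.788 to 0.841. The mean log2 signal of 20 skeletal muscle markers was 13.28 on it, against 9.34 to 10.67 on the other 15 arrays, and 19 of the 20 were highest there. Adipocyte markers averaged 9.98 on it, against 12.2 to 12.99 on the others, and 12 of 13 were lowest there, as were 15 of 16 macrophage markers. A second array, female DHT 12 h, held more RNA of exocrine pancreas markers (mean log2 of 7 markers 13.56, against 7.11 to 9.89 on the other arrays). In bulk tissue, fewer cells of a type and less RNA per cell cannot be told apart.

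Errfi1, the EGF receptor inhibitor, was higher on all 12 DHT arrays than on all 4 vehicle arrays, in both of its probe sets. In probe set 93975_at the female DHT signals were 1583, 1547, 1443, 1687, 1254 and 903 in order of time, against 771 and 862 in female vehicle. The male DHT signals were 1604, 1406, 1640, 1661, 1057 and 1112 at the same times, against 852 and 695 in male vehicle. The signals were thus high in both sexes from 1 to 12 h and lower at 18 and 24 h, and the female 24 h signal lay only just above the highest vehicle signal. Probe set 93974_at had 1323, 1212, 935, 830, 953 and 1128 in DHT females, against 471 and 539 in female vehicle. Its male DHT signals were 1198, 1211, 1220, 1369, 989 and 831, against 712 and 576 in male vehicle. The groups did not overlap in this probe set either, but its lowest female DHT signal came at 12 h, where the first probe set had its highest.

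**Figure D1:**
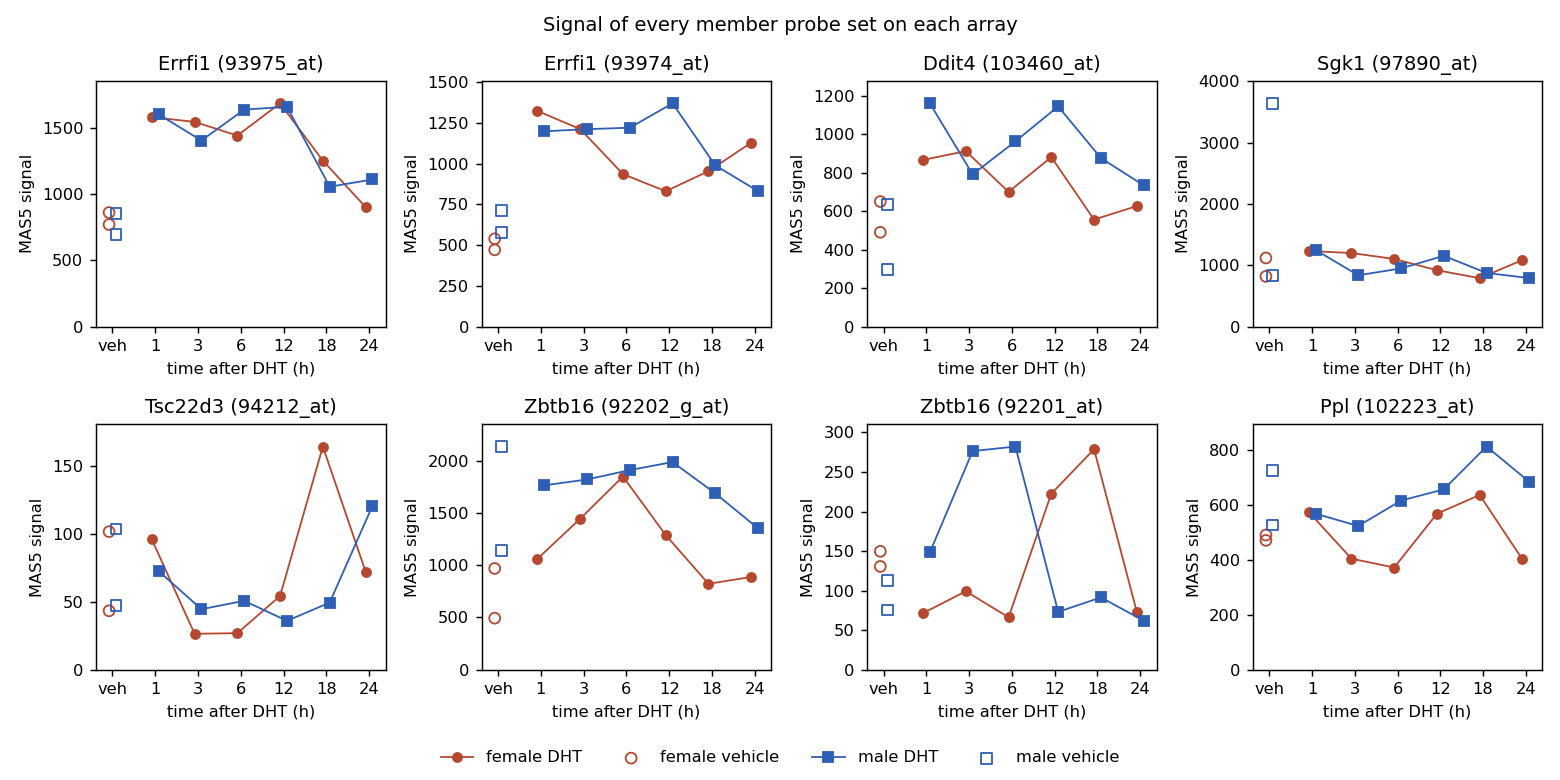
MAS5 signal (vertical axis of each panel, linear, from 0) of the 8 probe sets on each of the 16 arrays, against time after DHT (h), with vehicle at the left of each axis. Filled circles and squares joined by lines are female and male DHT arrays, and open symbols are vehicle arrays. In both Errfi1 panels all 12 DHT arrays lie above the 4 vehicle arrays, and in the Sgk1 panel 1 male vehicle array, at 3642, lies above all others.

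All 12 DHT arrays lay above all 4 vehicle arrays for 4 of the 5686 genes tested (0.0703%), which were Cdkn1a, Errfi1, Gadd45g and Pnp. For 2 genes, Cops7a and Eif2ak1, all 12 lay below. In a limma model with sex and time as factors, Errfi1 rose 1.73-fold over all DHT times (log2 0.79 ± 0.12 (SE), adjusted p = 0.0401 in limma over 5686 genes, 12 DHT against 4 vehicle arrays). With 15 arrays it rose by 0.73 ± 0.11 (adjusted p = 0.0301 in limma). It was the only 1 of the 5 tested genes of the set to pass, where 0.0703% of all genes tested passed with 16 arrays and 0.0879% with 15. The second probe set changed by 0.92 ± 0.16 and had an adjusted p of 0.0998 in limma when every probe set was tested on its own, a test in which the first had an adjusted p of 0.0519 (0.0484 when low signals were also kept, and 0.0288 in that test with 15 arrays). In an exact permutation test of vehicle labels within each sex (two-sided, 784 assignments, unadjusted, 1 of 8 such tests), both probe sets had p = 0.001276 with 16 arrays, the smallest p that this test can give. The test takes the arrays of a sex as independent, which is not stated for the vehicle pairs. With 15 arrays both probe sets had p = 0.005102, the smallest of 196 assignments in that exact test. As all DHT arrays lay above all vehicle arrays, the true labels sit at an end of the assignments. The exact p-values of Errfi1 thus restate that separation and are not further evidence of it. Errfi1 ceased to pass in limma when any 1 of the 15 other arrays was left out, with log2 changes of 0.76 to 0.83 and adjusted p-values of 0.0554 to 0.233.

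At single times the log2 change of Errfi1 (93975_at) was 0.99, 0.88, 0.94, 1.06, 0.53 and 0.33 in order of time (SE 0.18 each, 2 DHT against 4 vehicle arrays). Only the 24 h DHT arrays share the labelled time of the vehicle arrays. None of these passed with 16 arrays in limma (adjusted p = 0.397, 0.794, 0.205, 0.0870, 0.703 and 0.930 in that order). By p among the 5686 genes, Errfi1 was at rank 2 at 1 h, rank 2 at 3 h, rank 6 at 6 h and rank 5 at 12 h. With 15 arrays the changes were 0.93, 0.82, 0.88, 1.00, 0.47 and 0.27 in order of time (SE 0.15 each), and that at 12 h passed (adjusted p = 0.0376 in limma), where 0.0703% of all genes passed. On the 12 h arrays, female with pancreas markers and male without them, 93975_at had 1687 in the female and 1661 in the male, but 93974_at had 830 in the female and 1369 in the male. At 24 h the within-sex log2 change of 93974_at was 1.14 in females and 0.37 in males, against 0.14 and 0.52 for 93975_at. The low female value of 93975_at at 24 h was thus not seen in 93974_at.

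None of the 5 tested genes passed at any single time with 16 arrays. Of all genes tested, 0% passed at 1 h, 0.0176% at 3 h, 0.0528% at 6 h, 0.0528% at 12 h, 0% at 18 h and 0% at 24 h. At an unadjusted p under 0.05 in limma, 136, 102, 103, 123, 289 and 129 of the 5686 genes passed at these times. Errfi1 was among them from 1 to 18 h, Ddit4 from 1 to 12 h, Zbtb16 at 6 h, and Sgk1 and Ppl at none.

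Ddit4, the brake on mTORC1, was higher than every vehicle array on 10 of the 12 DHT arrays. The share of all genes with 10 or more such arrays was not computed. DHT females had 867, 913, 701, 882, 557 and 627 in order of time, against 491 and 651 in female vehicle. DHT males had 1162, 792, 964, 1146, 877 and 735, against 634 and 298 in male vehicle. The 2 DHT signals that overlapped with vehicle were those of females at 18 and 24 h, and the lowest of all 16 signals was that of male vehicle replicate 2. The change over all times was 0.73 ± 0.21 with 16 arrays (1.66-fold, adjusted p = 0.630 in limma) and 0.45 ± 0.14 with 15 (adjusted p = 0.998 in limma). Ddit4 did not pass among all genes in either setting, and its change was smaller without that array. In the exact permutation test it had p = 0.005102 with 16 arrays and p = 0.02041 with 15 (unadjusted). Changes at single times were 0.99, 0.76, 0.71, 1.00, 0.48 and 0.44 with 16 arrays (SE 0.31 each). With 15 arrays they were 0.71, 0.47, 0.43, 0.71, 0.20 and 0.16 (SE 0.20 each), again with the higher values at 1 and 12 h.

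**Figure D2:**
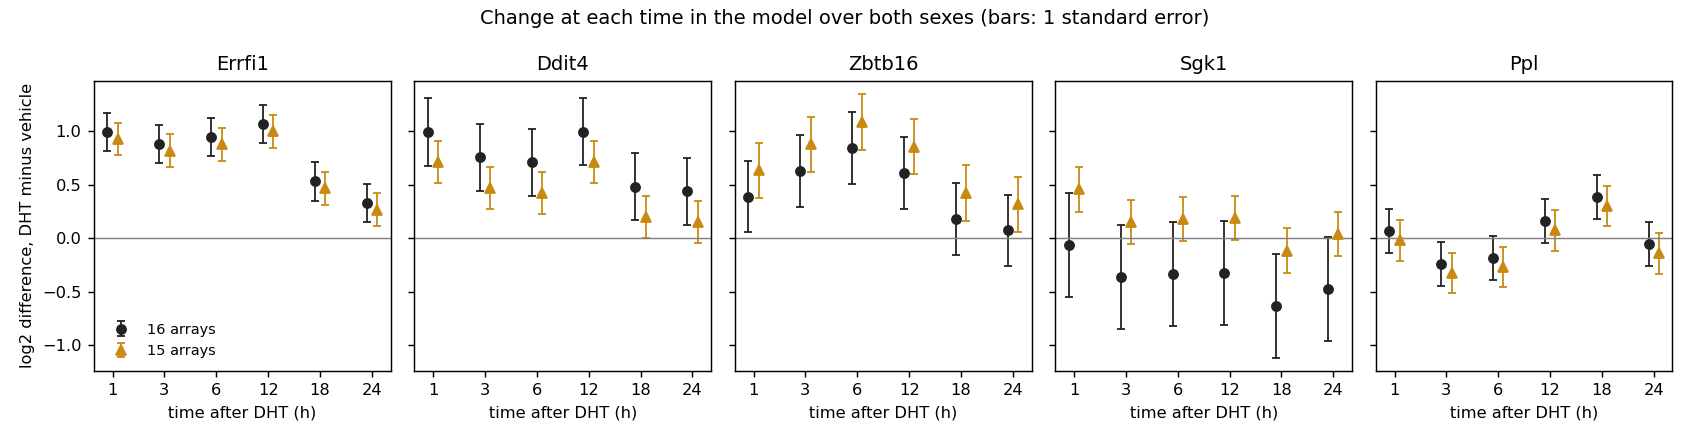
Log2 difference, DHT minus vehicle (vertical axis), at each time after DHT (horizontal axis, h) in the limma model over both sexes, for the 5 tested genes. Black circles use all 16 arrays and ochre triangles the 15 arrays without male vehicle replicate 2, and bars are 1 standard error. Errfi1 lies at 0.88 to 1.06 from 1 to 12 h and at 0.53 and 0.33 later, and the 2 settings part most for Sgk1.

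Sgk1, the kinase, showed no DHT array above all 4 vehicle arrays. DHT females had 1233, 1200, 1104, 920, 789 and 1086 in order of time, against 818 and 1119 in female vehicle. DHT males had 1251, 837, 949, 1155, 875 and 791, against 836 and 3642 in male vehicle. One vehicle array thus carried a signal above 3 times that of any other vehicle array, and 4 of the 12 DHT arrays lay above the 3 remaining vehicle arrays. The change over all times was -0.36 ± 0.32 with 16 arrays (adjusted p = 0.664 in limma) and 0.15 ± 0.15 with 15 (adjusted p = 0.998 in limma), so its sign followed that array. Exact permutation tests gave p = 0.2602 with 16 arrays and p = 0.3571 with 15. With 15 arrays the largest change at a single time was 0.46 ± 0.21 at 1 h (adjusted p = 0.998 in limma), the time when both sexes had their highest DHT signal, and the changes at 3 to 24 h lay between -0.11 and 0.19.

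**Figure D3:**
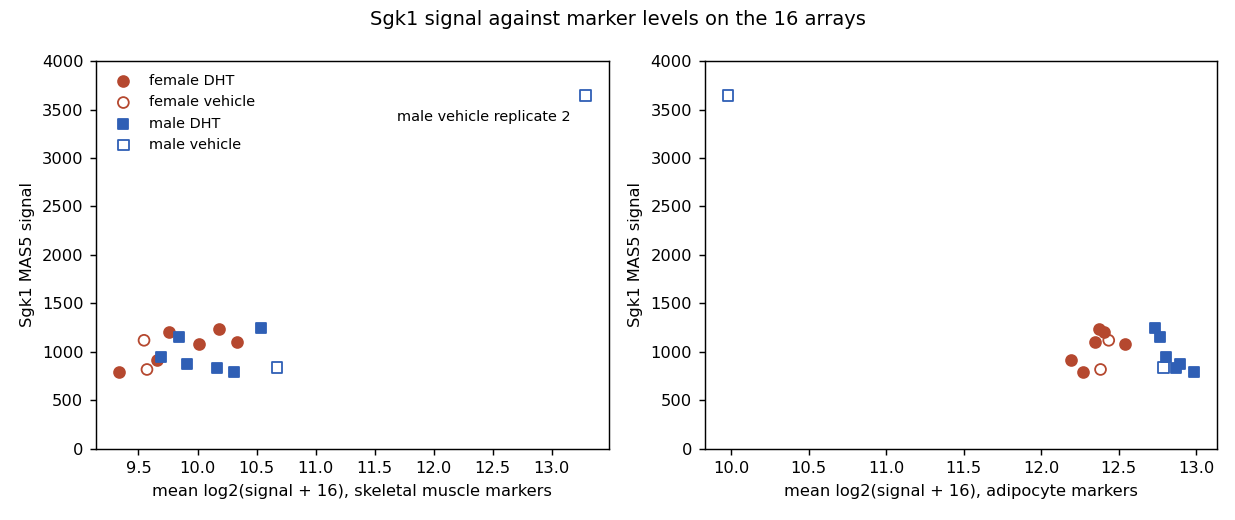
MAS5 signal of Sgk1 (vertical axis, linear) on each of the 16 arrays against the mean log2(signal + 16) of the skeletal muscle markers (left) and of the adipocyte markers (right). Filled symbols are DHT arrays, open symbols vehicle arrays, circles females and squares males. Male vehicle replicate 2 has the highest muscle level (13.28), the lowest adipocyte level (9.98) and the highest Sgk1 signal (3642), and the other 15 arrays lie between 789 and 1251.

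The summed signal of the 20 muscle markers was 393235 on the array with the high Sgk1 signal, against 23130 to 74562 on the other 15. Over the 16 arrays the log2 signal of Sgk1 had a Pearson correlation of 0.841 with the mean level of the muscle markers and of -0.872 with that of the adipocyte markers. Over the 15 arrays these were 0.154 and -0.238. The arrays share their scaling and their tissue, and the values describe them only. The part of muscle RNA in the Sgk1 signal of that array was not tested.

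Tsc22d3, which encodes GILZ, had low signals on every array. DHT females had 26.5 to 164 (median 63.3) and DHT males 36.0 to 121 (median 50.1), against 43.4 and 102 in female vehicle and 47.1 and 104 in male vehicle. The groups overlapped, and the highest signal, 164 in DHT females at 18 h, stood beside 49.5 in DHT males at that time. Its mean signal lay at the 28.9th percentile of all probe sets, below the limit for testing. Without that limit its change over all times was -0.16 ± 0.31 with 16 arrays and 0.02 ± 0.34 with 15, and exact permutation tests gave p = 0.6722 with 16 arrays and p = 0.8418 with 15.

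Zbtb16, the PLZF repressor, differed between its 2 probe sets. In 92202_g_at DHT females had 1061, 1444, 1847, 1288, 822 and 887 in order of time, against 493 and 968 in female vehicle. DHT males had 1763, 1819, 1909, 1986, 1687 and 1352, against 1139 and 2134 in male vehicle. The female signals formed a peak at 6 h, the male signals were nearly level to 12 h, and male vehicle replicate 2 was above every DHT array. Above the 3 other vehicle arrays lay 9 of the 12 DHT arrays, a count for which the share over all genes was not computed. The change over all times was 0.45 ± 0.22 with 16 arrays (adjusted p = 0.630 in limma) and 0.70 ± 0.18 with 15 (adjusted p = 0.887 in limma), and its rank by p among all genes was 458 with 16 arrays and 16 with 15. Exact permutation tests gave p = 0.08546 with 16 arrays and p = 0.01531 with 15 (unadjusted). With 15 arrays the changes at single times were 0.63, 0.88, 1.09, 0.86, 0.42 and 0.32 (SE 0.26 each), highest at 6 h.

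The other Zbtb16 probe set, 92201_at, had a mean signal of 138, just above the limit for testing. Its DHT signals ran between 66.4 and 279 in females (median 86.2) and between 62.1 and 282 in males (median 120), against 150 and 131 in female vehicle and 113 and 75.5 in male vehicle. The male signals were highest at 3 and 6 h (276 and 282) and the female signals at 12 and 18 h (223 and 279). Its change over all times was 0.10 ± 0.42 with 16 arrays and -0.08 ± 0.46 with 15, and exact permutation tests gave p = 0.8189 with 16 arrays and p = 0.9847 with 15. With sex means removed, the 2 probe sets had a correlation of -0.114 over 15 arrays, whereas the 2 Errfi1 probe sets had one of 0.760.

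Ppl, the desmosomal linker, overlapped between DHT and vehicle. DHT females had 574, 404, 372, 567, 635 and 401 in order of time, against 490 and 470 in female vehicle. DHT males had 567, 522, 615, 655, 811 and 683, against 723 and 526 in male vehicle. In both sexes the highest DHT signal was that at 18 h. Over all times the change was 0.02 ± 0.14 with 16 arrays (adjusted p = 0.943 in limma) and -0.06 ± 0.13 with 15 (adjusted p = 0.998 in limma), and the 18 h change was 0.39 ± 0.21 with 16 arrays (adjusted p = 0.703 in limma). The exact permutation tests had p = 0.8686 with 16 arrays and p = 0.6122 with 15.

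The late arrays (12, 18 and 24 h) were then set against the early arrays (1, 3 and 6 h). Errfi1 had a lowest, median and highest signal of 903, 1183 and 1687 late and of 1406, 1565 and 1640 early, so that the late arrays spread over a range that held the early ones. The late minus early log2 difference was -0.30 ± 0.12 for Errfi1, -0.33 ± 0.22 for Zbtb16, -0.22 ± 0.32 for Sgk1, -0.18 ± 0.21 for Ddit4 and 0.28 ± 0.14 for Ppl (6 against 6 arrays). None of the 5 passed (adjusted p = 0.9996 each in limma), and 0% of all genes did. At an unadjusted p under 0.05 in limma, 146 genes passed, and Errfi1 was the only 1 of the 5 among them. The differences were the same with 15 arrays, their standard errors were 0.10 for Errfi1 and 0.12 for Ppl, and again none of the 5 passed in limma, where 0.0352% of all genes did (2 genes). Of the 407 genes then at an unadjusted p under 0.05, Errfi1 and Ppl were 2.

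Between the sexes, Zbtb16 and Ppl had lower signals in females. For Zbtb16 (92202_g_at) the female DHT array was below the male DHT array at 6 of 6 times, by a mean of -0.56 on the log2 scale (SD 0.34), and an exact test over 64 sign flips gave p = 0.03125 (two-sided, unadjusted, the smallest it can give). The female DHT array was below the male one at all 6 times for 9.43% of all genes tested. In limma, over 8 female and 8 male arrays, the female minus male difference was -0.71 ± 0.19 for Zbtb16 (adjusted p = 0.0569) and -0.38 ± 0.12 for Ppl (adjusted p = 0.0885). With 15 arrays both passed, at -0.58 ± 0.15 (adjusted p = 0.0178 in limma) and -0.42 ± 0.11 (adjusted p = 0.0183 in limma). That is 0 of the 5 tested genes with 16 arrays, where 5.75% of all genes passed, and 2 of the 5 with 15 arrays, where 16.6% did. At an unadjusted p under 0.05 in limma with 16 arrays, 1134 genes passed, Zbtb16 and Ppl among them.

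Ppl was lower in females at 5 of 6 DHT times (mean log2 difference -0.39, SD 0.29, exact p = 0.0625), and so was Ddit4 (-0.32, SD 0.29, exact p = 0.0625). The share of all genes with 5 of 6 times lower in females was not computed, and 9.43% had all 6 lower. Errfi1 differed between the sexes by -0.02 on average (SD 0.20, exact p = 0.8438), being higher in females at 3 times and in males at the other 3, and Sgk1 by 0.11 (SD 0.33, exact p = 0.4375). The other Zbtb16 probe set showed no such order, being higher in females at 3 of 6 times. Markers of other cells also differed between the sexes. With 15 arrays, 14 of 14 tested macrophage markers were higher in females (10 of them passed in limma, median log2 difference 0.42), and 13 of 13 adipocyte markers were lower in females (7 passed, median -0.33). The part of these in the Zbtb16 and Ppl differences was not tested.

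**Figure D4:**
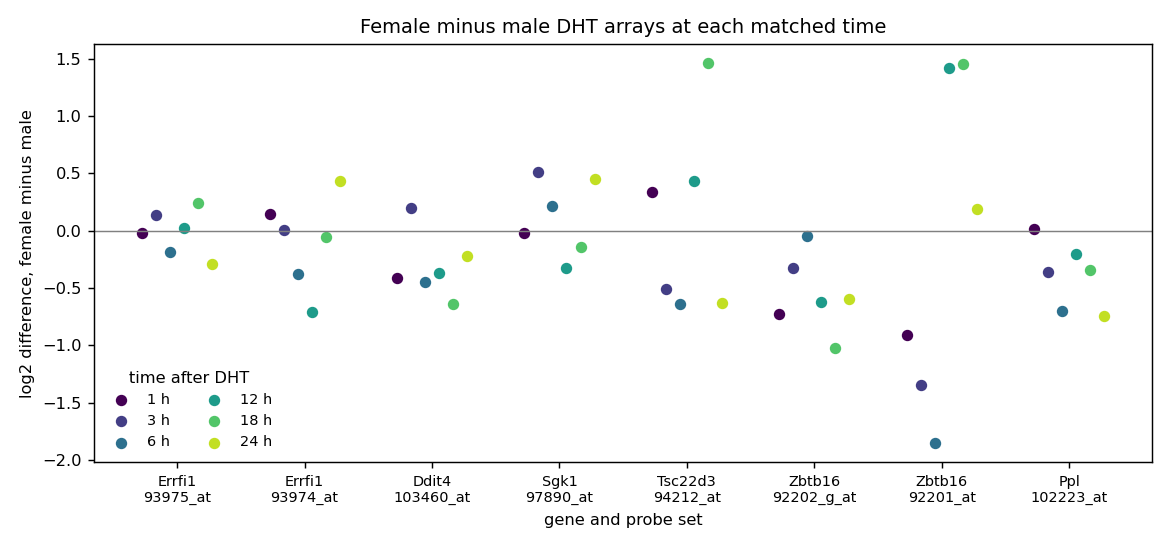
Female minus male log2 difference (vertical axis) between the DHT arrays of the same time, for the 8 probe sets (horizontal axis), with 1 point per time, coloured from 1 h (dark) to 24 h (light). All 6 points lie below 0 for Zbtb16 92202_g_at, and the points of the low-signal probe sets of Tsc22d3 and Zbtb16 (92201_at) spread widest.

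The sexes were also compared in their response to DHT (female response minus male response, 1 term for any time). The difference was 0.97 ± 0.60 for Sgk1, 0.60 ± 0.43 for Zbtb16, -0.68 ± 0.38 for Ddit4, -0.10 ± 0.25 for Errfi1 and -0.04 ± 0.29 for Ppl with 16 arrays. None passed in limma (adjusted p = 0.594 for Sgk1 and Ddit4), 0% of all genes passed, and the 365 genes with an unadjusted p under 0.05 held none of the 5. With 15 arrays the differences were -0.08 ± 0.32 for Sgk1 and -0.16 ± 0.30 for Ddit4. Without male vehicle replicate 1, which leaves the muscle-rich array as the only male vehicle array, they were 2.02 (adjusted p = 0.000623 in limma) for Sgk1 and -1.21 (adjusted p = 0.0101 in limma) for Ddit4, and 33.7% of all genes passed in that setting (1917 of 5686). Both calls then rest on that array.

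The probe sets were also correlated with each other over the arrays. With sex means removed, the main probe sets of Errfi1 and Ddit4 had a correlation of 0.832 over 15 arrays and 0.836 over 16. Those of Errfi1 and Zbtb16 had 0.769 and 0.556, and those of Ddit4 and Sgk1 had 0.780 and -0.478, so the last of these pairs changed sign with male vehicle replicate 2. Ppl had correlations of -0.121, -0.158, -0.431 and -0.402 with Errfi1, Ddit4, Sgk1 and Zbtb16 over 15 arrays, and of 0.043, 0.134, -0.447 and -0.437 over 16, so that those with Errfi1 and Ddit4 turned sign. Over the same 15 arrays the 3 tested genes most like Errfi1 were Gadd45g (0.841), Ddit4 (0.832) and Cebpd (0.820), and those most like Zbtb16 were Trim37 (0.890), Gadd45g (0.860) and Cebpd (0.851). Those most like Ddit4 were Socs2 (0.889), Becn1 (0.873) and Errfi1, of which Socs2 and Becn1 had 0.188 and -0.263 over 16 arrays. Those most like Sgk1 were Lims1 (0.940), Ube2n (0.937) and Bcap29 (0.935), and those most like Ppl were Synj2 (0.867), Kcnma1 (0.864) and Cplx2 (0.845). Over 16 arrays Lims1 had 0.469, Ube2n 0.652, Synj2 0.342 and Kcnma1 0.258, while Bcap29 had 0.950 and Cplx2 0.827. All of these describe arrays that share DHT times and scaling.

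Genes that act in the same pathways were described from lists, each beside the median log2 change of all tested genes over all DHT times, which was 0.04 with 55.4% of genes positive. Of 12 tested genes of EGF receptor signalling, the pathway that Errfi1 restrains, none passed in either direction in limma, 6 were positive and the median was 0.04. Egfr, the receptor itself, was highest at 0.49 ± 0.17 with 16 arrays and had 0.36 ± 0.17 with 15, and Erbb3, a related receptor, was lowest at -0.24 ± 0.19. Of 12 genes around mTORC1 none passed, 4 were positive and the median was -0.08, with Txnip highest (0.30 ± 0.20) and Akt1s1, an mTORC1 inhibitor, lowest (-0.41 ± 0.27). Of 12 AKT and SGK kinases and substrates none passed, 4 were positive and the median was -0.12, with Foxo4 highest (0.36 ± 0.26) and Ndrg2 lowest (-0.73 ± 0.50). With 15 arrays Ndrg2, a substrate of SGK1, was at 0.13 ± 0.12 and Akt1s1 at 0.01 ± 0.14. The medians of the 3 lists were then 0.05, -0.03 and -0.01, beside 0.006 over all genes, and their highest genes were Cbl (0.37), Rps6kb2 (0.14) and Nedd4l (0.18).

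Of 15 genes of the TSC22 family, NF-kappaB and AP-1, none passed, 9 were positive and the median was 0.08, with Fosl2, an AP-1 subunit, highest (0.48) and Nfkbib, an NF-kappaB inhibitor, lowest (-0.26). Of 11 BTB zinc finger factors and corepressors none passed, 6 were positive and the median was 0.09, with Sin3b, a corepressor scaffold, highest (0.47) and Cul3, a ubiquitin ligase scaffold that binds BTB proteins, lowest (-0.59). Of 8 plakins and desmosomal genes none passed, 5 were positive and the median was 0.05, with Pkp2 (plakophilin) highest (0.59) and Plec (plectin) lowest (-0.66). The medians of these 3 lists with 15 arrays were -0.075, -0.01 and -0.10, all of the other sign. Fosl2 was then still highest (0.74), while Nfkbib was at -0.08, Sin3b at 0.18, Cul3 at -0.01, Pkp2 at 0.01 and Plec at 0.08, and none of these 5 was at an end of its list. Of 10 steroid receptors, cofactors and steroid enzymes on the array, 4 lay above the limit for testing, none of them a receptor (Hsd11b1, H6pd, Ncoa1 and Ncoa3). None of the 4 passed, and Hsd11b1, which makes active glucocorticoid from its inert form, was highest at 0.86 ± 0.32 with 16 arrays and at 0.35 ± 0.14 with 15.

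Calls were made in the list of other steroid-inducible genes, which had been drawn up with earlier results of these arrays known and is not independent evidence of a direction. Of its 26 tested genes 3 rose and none fell in limma with 16 arrays, 19 were positive and the median was 0.37. Those that rose were Mt2, a metallothionein (1.63 ± 0.20, adjusted p = 0.0116), Gadd45g, a growth arrest gene (1.44 ± 0.15, adjusted p = 0.0044), and Fkbp5, a co-chaperone of steroid receptors (1.38 ± 0.18, adjusted p = 0.0125). With 15 arrays Cdkn1a, the cell cycle inhibitor, also rose (0.87 ± 0.14, adjusted p = 0.0392), 22 were positive and the median was 0.22. At single times with 16 arrays, Gadd45g passed at 3 h, and Fkbp5, Mt2 and Gadd45g passed at 6 h and at 12 h. Set against the 26, Ddit4 (0.73), Zbtb16 (0.45), Ppl (0.02) and Sgk1 (-0.36) had values that did not pass, while Gadd45a was lowest of the list at -0.75 ± 0.25, also without passing.

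Between the sexes, 3 genes of these lists passed with 16 arrays, all lower in females, where 5.75% of all genes passed. Most of the listed genes did not pass, and no gene of the TSC22 and BTB lists passed in either setting. The share over the lists together was not computed, so the genes are named without a claim that the lists differ from all genes. With 15 arrays, to which the later counts belong, 16.6% of all genes passed. The female minus male log2 difference was -0.54 ± 0.12 for Akt2, an insulin-responsive kinase (adjusted p = 0.0189 in limma), -1.07 ± 0.28 for Hsd11b1 (adjusted p = 0.0471) and -1.52 ± 0.17 for Inmt, a methyltransferase (adjusted p = 0.0004). The genes around mTORC1 that passed with 15 arrays were Eif4ebp1 (-0.68), Txnip (-0.62) and Eif4ebp2 (-0.23), all 3 lower in females, of 12 tested. Of the 12 AKT and SGK genes 4 passed with 15 arrays, Akt1 being higher in females (0.40) and Akt2 (-0.61), Ndrg2 (-0.46) and Ndrg1 (-0.29) lower. Pkp2 (-0.90) was the only gene to pass of the desmosomal list that was drawn up around Ppl, and it was lower in females. Dusp6 (0.37), a phosphatase, was the only 1 of the 12 tested EGF receptor genes to pass, and it was higher in females. Of the 26 steroid-inducible genes, 1 was higher (Gadd45a, 0.69) and 5 were lower in females with 15 arrays. These 5 were Inmt (-1.53), Sult1a1 (-0.65), Pck1 (-0.65), Gadd45g (-0.50) and Angptl4 (-0.48). Of the 4 tested steroid enzymes and cofactors, Hsd11b1 (-1.33) and H6pd (-0.47) passed with 15 arrays and were lower in females.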

How the data were processed

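Per the submitters' processing notes the arrays were processed with MAS5, with no version stated in the sources used here. The deposited table gives a linear intensity for every probe set on every array, which the authors had scaled so that the mean after trimming 2% at each end was 500 on all 16 arrays. Median signals were 184.1 to 219.5, and the number of arrays limits the precision. Of 12488 probe sets, 66 are controls and 10833 had 1 gene symbol in the platform annotation. Where a gene had several probe sets, the one of highest mean stood for it (8251 genes), and 5686 genes above the 40th percentile of mean signal (116.03) were tested. limma 3.58.1 in R 4.3.3 was fitted to log2(signal + 16) with sex and time as factors (eBayes with trend, two-sided, 8 residual degrees of freedom, 7 with the sex by DHT term). Benjamini-Hochberg adjustment ran over all tested genes, with a threshold of 0.05. The model was tested on simulated data. Single probe sets also had exact permutation tests.

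The genes named are the 6 genes with all their probe sets, for each tested one the 3 genes with the highest correlation over 15 arrays, and from each pathway list the genes past the threshold or, where none passed for DHT over all times, the highest and lowest. The 6 genes, the lists and the use of 15 arrays were chosen with earlier results of these data known. Promoter windows came from RefSeq (GRCm38.p6). Alternatives were the pseudocount (1 or 64), no filter, quantile normalization, every probe set on its own, DHT times as replicates, separate means for each sex and time, control probe sets as a covariate, and leaving out each array in turn.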

Additional observations from a re-analysis of the deposited data

Results flagged for a closer look

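The Sgk1 signal of male vehicle replicate 2 was 3641.5, far from the other 3 vehicle arrays (836 in males, 818 and 1119 in females). Its gap to the nearest of them was 0.893 of the range of the 4 arrays, above the 95% critical value of Dixon's test. It was the only such value among 24 groups examined (8 probe sets, each in the 4 vehicle, 6 female DHT and 6 male DHT arrays), and chance alone gives about 1 in 20 groups. The same array had the highest muscle marker level, 13.28, and the lowest adipocyte marker level, 9.98.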

How the results depend on the processing

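The rise of Errfi1 over all DHT times kept its direction under all alternatives run, and kept its call with pseudocounts of 1 and 64, without the filter and with quantile normalization. It no longer passed in limma with every probe set tested on its own (0.79, adjusted p = 0.0519, but 0.0484 with no filter as well, a combination chosen after seeing the data), with control probe sets as a covariate (0.78, adjusted p = 0.0533), with DHT times as replicates (0.79, adjusted p = 0.245) and with sex-by-time means fitted separately (0.79, adjusted p = 0.992), where only the 2 vehicle pairs give a spread. With 1 array left out it was 0.73 to 0.83 (adjusted p = 0.0301 to 0.233 in limma) and passed in 1 of 16 fits, that without male vehicle replicate 2. The number of the 5 genes called was then 0 or 1 for all times (reported value 1), and 0 under the 4 alternatives above. With 1 array left out it was 0 or 1 at 12 h and 0 to 2 for female against male and for the difference between the sexes in response (reported value 0 each). The 2 were Zbtb16 and Ppl without male vehicle replicate 2 for female against male, and Sgk1 and Ddit4 without male vehicle replicate 1 for the response, where 1917 of 5686 genes passed. For female against male it was 1 with times as replicates and 1 with the covariate, where 604 and 606 of 5686 genes passed. Over all genes, 327 passed for female against male with 16 arrays and 943 with 15. Of 1165 single-gene values under alternatives 1139 kept their call, and 39 changed sign, 0 of them where called. Vehicle arrays were numbered in accession order, which pairs none of them, so no replicate block was fitted. The cause of these losses was not tested. Precision is limited by 1 array per sex and time, for Tsc22d3 by signals mostly below the limit for testing, and for probe set 92201_at by signals near it.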
